A study of Rattus norvegicus with 13 samples.

Results

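miR-122, miR-192 and miR-194, 3 microRNAs (miRNAs) known for liver and for gut and kidney epithelium, were followed in the fat of rat daughters. They were chosen by their names on the array, rno-miR-122, rno-miR-192 and rno-miR-194, and make up 3 of the 677 rat miRNAs on the array. All 3 were also among the 176 miRNAs that were detected on enough arrays to be tested. The 7 Control arrays held fat RNA of daughters whose fathers ate standard chow with 9% as fat. The 6 HFD arrays held fat RNA of daughters whose fathers ate high-fat pellets with 43% as fat. All fathers were Sprague Dawley rats mated at 15 weeks of age with chow-fed females. All daughters were weaned onto chow at 3 weeks and gave their fat at 14 weeks, so that the diets differed between the groups only in the fathers. Each animal had 1 array, hybridised with Cy3-labelled miRNA prepared from 100 ng of total RNA. The sources used here give no fat depot, litter or father for an animal, so sisters, if there were any, could not be modelled and p-values measure only the spread between these animals.

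A miRNA is a short RNA that guides a silencing complex to messenger RNAs, mainly by pairing of its seed, bases 2 to 8, and lowers their output. miR-122 is the defining miRNA of hepatocytes, where it acts on genes of cholesterol and lipid metabolism, and it is widely used as a blood marker of liver injury. miR-192 and miR-194 are made together from shared precursor transcripts and are abundant in liver, gut epithelium and kidney. miR-215 is the close relative of miR-192 and has the same seed. None of the 3 is among the miRNAs that are used to define adipocytes.

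The mature sequences are shown first because they decide what the probes can tell apart. They come from RefSeq on build GRCr8, 5′ to 3′, with the seed in capitals, and all 7 array names looked for had an entry. The names on the array carry no arm and were taken as the 5p forms, and starred names as the 3p forms.
miR-122: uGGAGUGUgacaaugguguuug
miR-192: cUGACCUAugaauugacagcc
miR-215: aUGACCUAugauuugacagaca
miR-194: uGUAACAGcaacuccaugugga
miR-192 and miR-215 share the seed and have the same base at 18 of 21 aligned positions, whereas the seeds of miR-122 and miR-194 were each found in no other RefSeq rat mature miRNA. miR-192 lies at chr1:212994232-212994252 on the plus strand. miR-194 is encoded at 2 loci with the same mature sequence. The Mir194-2 copy, at chr1:212994038-212994059, belongs to a hairpin that ends 100 bases before the Mir192 hairpin. The Mir194-1 copy, at chr13:99382730-99382751, lies inside the protein-coding gene Iars2, and its hairpin ends 191 bases before that of Mir215. A probe for miR-194 therefore cannot tell the 2 loci apart. miR-122 lies at chr18:61028831-61028852, inside the transcribed pseudogene LOC134482951. Its hairpin is shown with both mature arms in capitals, because the second arm, miR-122*, has a probe set of its own.
Mir122 hairpin: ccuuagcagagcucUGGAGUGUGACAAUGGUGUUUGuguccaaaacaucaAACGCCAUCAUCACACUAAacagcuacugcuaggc

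Each miRNA of the 3 had 2 probes, and each probe 7 to 10 usable spots per array. Values are given first as intensity, the background-subtracted brightness of the spots averaged over both probes of a miRNA. Intensity is not normalized between arrays. Intensities of different miRNAs were not compared, because probes differ in brightness. The level used in tests is the log2 of intensity after division by the array's 75th percentile over 260 probes detected on all 13 arrays. It has a floor at 0.0197 of that percentile, or -5.66 on the log2 scale, and values at the floor have no order. The floor corresponded to an intensity of 30.5 to 50.1, depending on the array. A miRNA was called detected on an array when at least 0.5 of the spots of 1 of its probes stood well above background by the scanner software, and a detected miRNA can still lie at the floor. The arrays detected 154 to 196 miRNAs each, and their number limits the precision of every comparison. Skeletal and heart muscle miRNAs stood far above the other arrays on HFD 629, Control 662 and Control 664, with summed scaled intensities of 14.07, 12.05 and 7.87 against 0.0992 to 0.877 on the other 10 arrays.

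miR-122 lay close to or at the floor on most arrays and far above it on a few. In the Control group its intensity was 331 in animal 622, 145 in animal 662 and 66.8 in animal 664. It was 39.8 in animal 658 and 35.3 in animal 627, and it was not detected in animals 656 and 631, at 14.5 and 7.99. Control animals thus held both 1 of the highest and the 2 lowest values of the series. In the HFD group the intensity was 341 in animal 620 and 324 in animal 624. The other 4 HFD animals lay close together, at 56.5 in animal 629, 53.8 in animal 660, 39.1 in animal 663 and 38.5 in animal 619. miR-122 was detected in 5 of 7 Control and 6 of 6 HFD animals. Among the 11 arrays with a detected signal, the highest scaled intensity was 10.9 times the lowest.

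**Figure D1:**
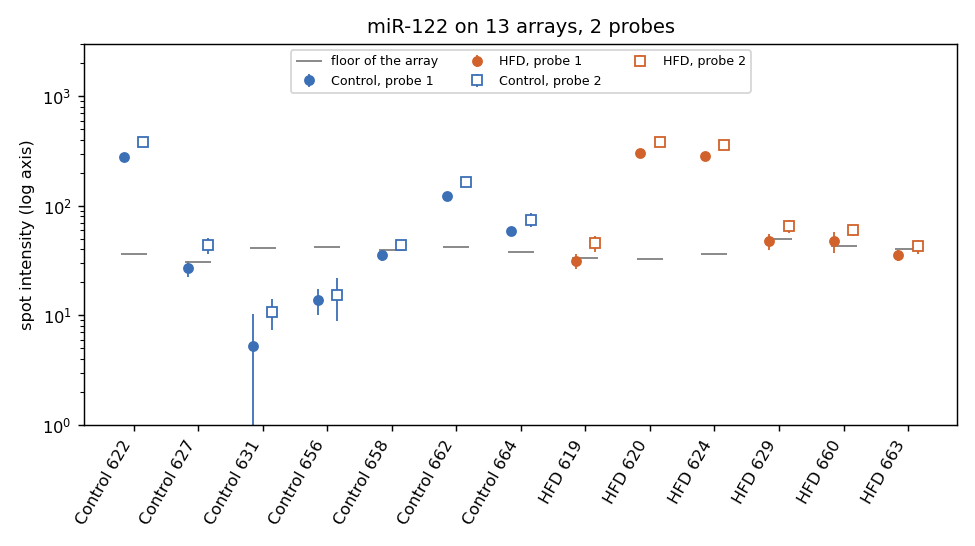
miR-122 spot intensity on a log axis for each of the 13 arrays, with filled circles for the first probe, open squares for the second, error bars for the SD over the spots of a probe and grey dashes for the array's floor; the lower bar of the first probe in Control 631 runs past the axis. Control 622, HFD 620 and HFD 624 stand at 324 to 341 as the mean of both probes, Control 662 at 145, and the other 9 arrays at 66.8 or below.

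The 3 brightest arrays came from both diets and both slides: Control 622 and HFD 624 were on slide 1 and HFD 620 on slide 2. All 3 had animal numbers in the lower range, 619 to 631, which held 7 of the 13 animals, while the upper range, 656 to 664, held the other 6. The labels do not say what the numbers stand for. Their intensities of 324, 331 and 341 were nearly equal, and the median of the other 10 arrays was 39.4. Both probes put the same 3 animals on top. The first probe read 277, 302 and 288 in Control 622, HFD 620 and HFD 624 against at most 123 elsewhere, and the second read 384, 381 and 360 against at most 167 elsewhere. Over the 13 arrays the probes had r = 0.998, which describes probes that share each array's RNA and depth. Within an array, the spots of a miR-122 probe had a median coefficient of variation of 12.5%. miR-122 was among the most variable miRNAs of these arrays, with an SD of 1.34 on the log2 scale, rank 4 of 176. Only the muscle miRNAs miR-133b and miR-1, the latter at 3.08, and miR-338, at 1.66, varied more.

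The opposite arm of the miR-122 hairpin was not detected on any array. Its first probe read 0.901, 2.77 and 0.229 in Control 622, HFD 620 and HFD 624, beside 0.174 in Control 662 and between -10.5 and -3.49 on the other 9 arrays. Its second probe read 8.94, 8.87 and 10.4 in Control 622, HFD 620 and HFD 624 and between -9.62 and -0.846 on the other 10 arrays. These are the 3 arrays of highest miR-122. No spot of either probe stood well above background. Single negative-control spots of an array had an SD of 7.91 to 10.9 around a mean of -2.69 to 0.781. The probe values are means over several spots and vary less than single spots, so that SD is not their spread.

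miR-192 was dim everywhere and varied little. In the Control group its intensity ran from 31.6 over a median of 39.3 to 50.9, and in the HFD group from 30.5 over 45.3 to 49.4. It was detected in 5 of 7 Control and 5 of 6 HFD animals, and on 5 arrays both of its probes lay at the floor. The highest values were in Control 622, at 50.9, HFD 620, at 49.4, and HFD 663, at 49.1, and the lowest in HFD 660, at 30.5. The highest was 1.67 times the lowest, and the spots of a miR-192 probe within an array had a median coefficient of variation of 15.2%. The 2 probes had r = 0.957 over the arrays.

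miR-194 was at the edge of detection. Its intensity ran from 21.7 over 27.2 to 34.3 in the Control group and from 22.5 over 31.2 to 34.4 in the HFD group. It was detected in 2 of 7 Control and 4 of 6 HFD animals, always through its first probe, which had 56 of 129 spots well above background. The second probe had 1 of 123, and on 8 arrays both probes lay at the floor. The highest intensities were in HFD 629, at 34.4, and Control 656, at 34.3. Divided by the array's 75th percentile, the highest were HFD 619, at 0.0191, and HFD 620, at 0.0182, and HFD 629, the brightest array, came 9 of 13; of these, HFD 620 was among the 3 arrays of highest miR-122. miR-192*, miR-194* and miR-215, the other products of the same 2 clusters, had 0 spots well above background on any array.

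**Figure D2:**
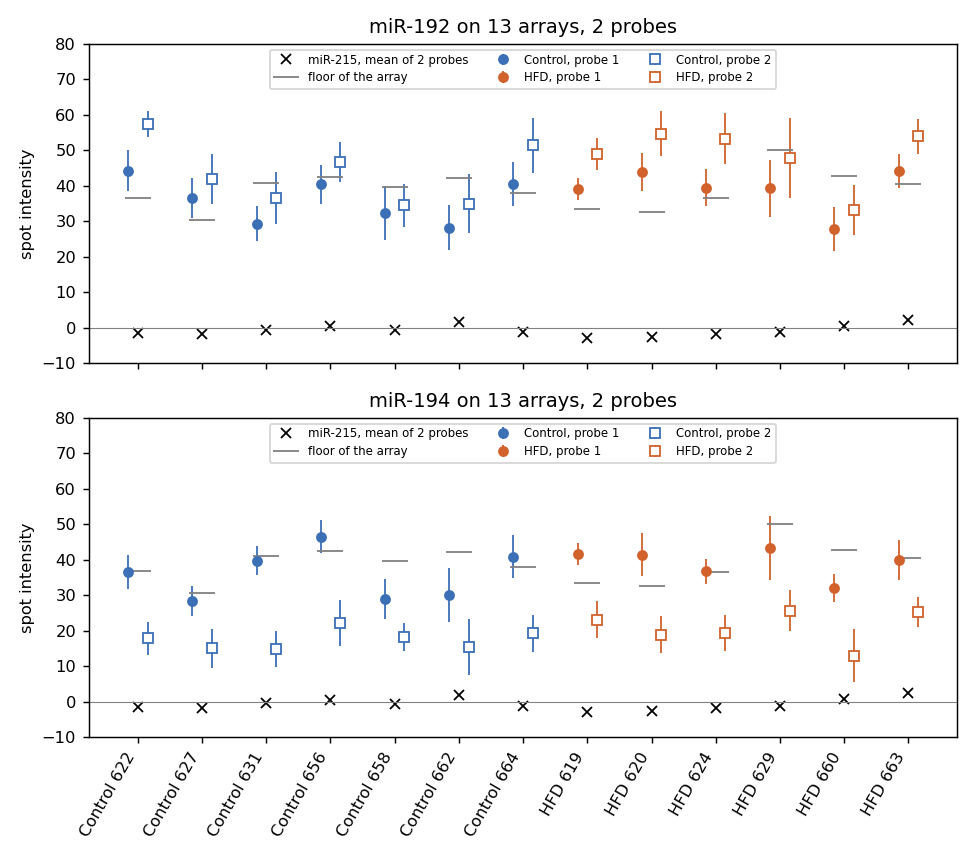
Spot intensity of miR-192 (upper panel) and miR-194 (lower panel) on a linear axis for each of the 13 arrays, with both probes, the SD over spots as error bars, the array's floor as grey dashes and miR-215 as black crosses. The probes of miR-192 and the first probe of miR-194 lie close to the floor, between 27.8 and 57.5, the second probe of miR-194 lies between 12.96 and 25.6, and miR-215 lies around 0.

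No difference between the labelled groups was called for any of the 3. For miR-122 the log2 level ran from -5.66 over a median of -5.40 to -2.51 in Control animals and from -5.63 over -5.39 to -2.28 in HFD animals, so the groups overlapped over nearly their whole range. The mean was -4.80 ± 1.19 (SD, n = 7) in the Control and -4.45 ± 1.59 (SD, n = 6) in the HFD group. The difference, HFD minus Control, was 0.35 ± 0.72 (SE), with a 95% interval from -1.21 to 1.90 and a limma adjusted p of 0.983. As a fold this is 1.27, with an interval from 0.434 to 3.74, so differences of more than 2-fold in either direction lie within it. Its sign rested on the HFD animals 620 and 624: the difference was -0.084 without the first, -0.035 without the second, and -0.29 without the 3 arrays of highest miR-122. It was 0.72 without the 3 arrays of high muscle miRNAs (adjusted p 0.746 by limma). Within the lower animal numbers it was 0.60 and within the upper -0.48, and with the number range as a block it was 0.12.

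For miR-192 the log2 level ran from -5.66 over -5.59 to -5.20 in Control and from -5.66 over -5.37 to -5.07 in HFD animals. The means were -5.50 ± 0.20 (SD, n = 7) and -5.40 ± 0.23 (SD, n = 6), and the groups overlapped. The difference was 0.097 ± 0.11 (SE), with a 95% interval from -0.15 to 0.34 and a limma adjusted p of 0.968, and it was 0.031 without HFD 620. For miR-194 the level ran from -5.66 over -5.66 to -5.60 in Control and from -5.66 over -5.66 to -5.49 in HFD animals. Its means were -5.65 ± 0.029 (SD, n = 7) and -5.61 ± 0.085 (SD, n = 6), and the difference was 0.039 ± 0.040 (SE), with a 95% interval from -0.049 to 0.13 and a limma adjusted p of 0.966, and it was 0.015 without HFD 620. Values at the floor compress both of these differences. Exact permutation of the group labels over all 1716 splits gave two-sided p-values of 0.666, 0.420 and 0.347 for miR-122, miR-192 and miR-194. None of the 3 was called at an adjusted p under 0.05, where limma called 0 of 176 miRNAs (0%). At an unadjusted p under 0.05 it gave 2 of 176 (1.14%), miR-214 and miR-193*, which were looked up after their values were seen. All 3 differences were above 0, beside 91 higher and 85 lower among all tested miRNAs and a median difference of 0.0028.

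**Figure D3:**
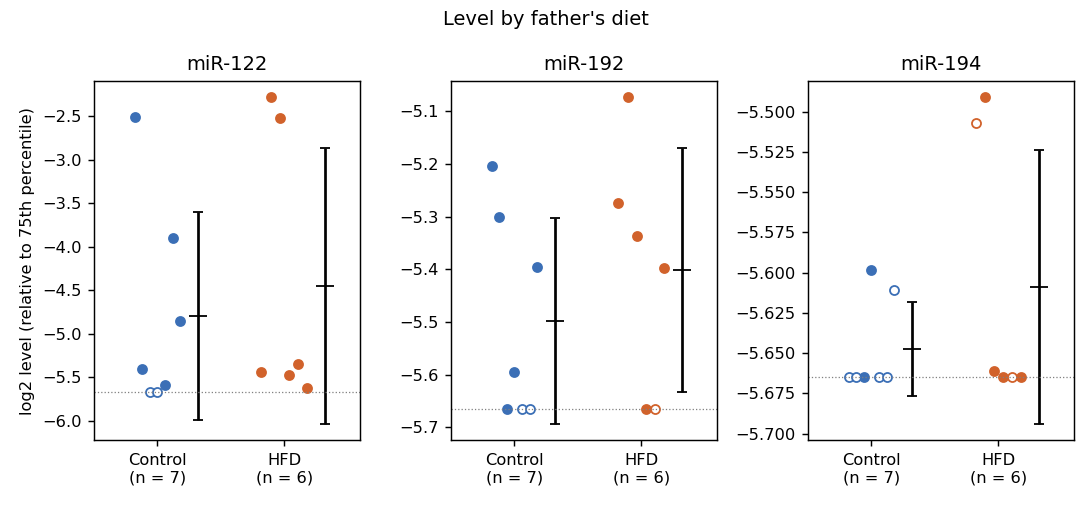
Log2 level of miR-122, miR-192 and miR-194 by the father's diet, with a point per animal (7 Control, 6 HFD), open where the miRNA was not detected, the mean ± SD beside each group and a dotted line at the floor of -5.66; each panel has its own scale. The groups overlap in all 3 panels, and 2 HFD animals and 1 Control animal carry the high miR-122 levels.

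Slide 1 held 4 Control and 4 HFD arrays and slide 2 held 3 and 2. Within slide 1 the differences of miR-122, miR-192 and miR-194 were 0.069, -0.075 and -0.016, and within slide 2 they were 0.92, 0.40 and 0.15. The 2 slides thus gave opposite signs for miR-192 and miR-194. The test of that contrast, slide 2 minus slide 1, gave 0.48 for miR-192 with a 95% interval from 0.028 to 0.92, and 0.16 for miR-194 with an interval from 0.036 to 0.29. Neither passed adjustment by limma (adjusted p 0.238 and 0.217), and the contrast of miR-122 was 0.85 (adjusted p 0.774 by limma). Of all tested miRNAs 1, the erythrocyte miRNA miR-451, was called in this test (0.568%), while 34 (19.3%) had an unadjusted p under 0.05, so the 2 of the 3 members below that threshold stand among many.

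Whether the 3 miRNAs rose on the same arrays was read from the levels array by array. miR-192 had its 2 highest intensities on the arrays of Control 622 and HFD 620, which were also the 2 highest for miR-122, and HFD 624 ranked 3 for miR-122 and 4 for miR-192. By intensity miR-194 ranked Control 622, HFD 620 and HFD 624 at 9, 5 and 7 of 13, and after scaling at 7, 2 and 6. The high rank of miR-122 on the 3 arrays was therefore shared in large part by miR-192, and by miR-194 on HFD 620 alone after scaling, while the sizes differed widely. Scaled to the array's 75th percentile, miR-122 had 0.175 to 0.207 on the 3 arrays and at most 0.0678 elsewhere. miR-192 had 0.0250 to 0.0299 on them, while HFD 619 and Control 627, which had low miR-122, reached 0.0260 and 0.0254.

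**Figure D4:**
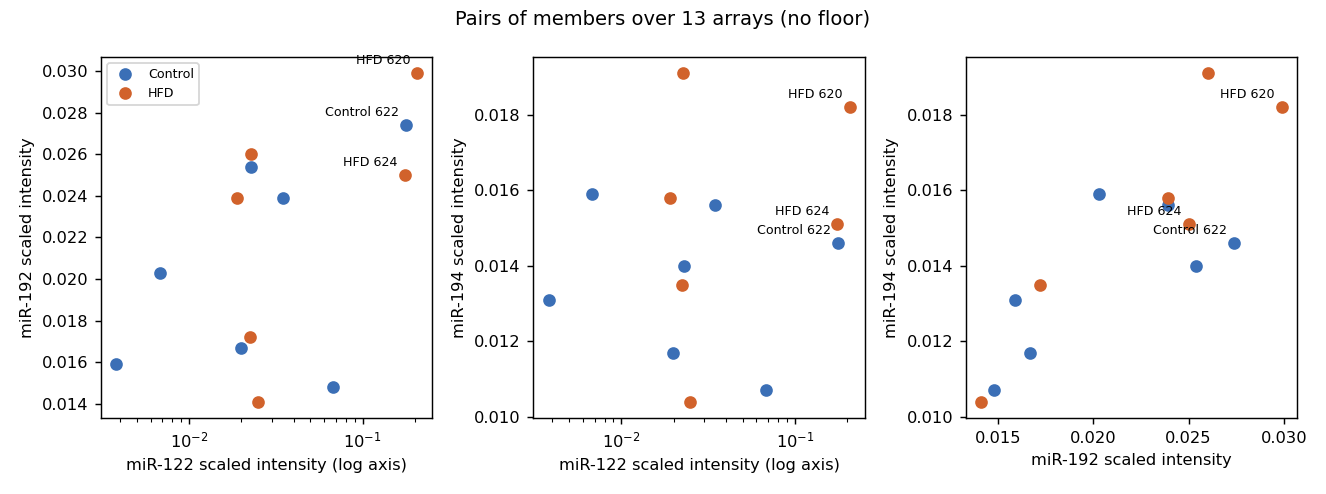
Scaled intensity (intensity divided by the array's 75th percentile, no floor) of each pair of the 3 miRNAs, with a point per array, Control in blue and HFD in orange, and miR-122 on a log axis. Control 622, HFD 620 and HFD 624 are named: they lie at the far right for miR-122 and high for miR-192, while for miR-194 they lie among the other arrays except HFD 620.

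Across the 13 arrays, log2 levels of miR-122 and miR-192 had Pearson's r = 0.617 (permutation p 0.0299) and Spearman's rho = 0.558 (permutation p 0.0518). The 522 pairs of a member with a tested miRNA were adjusted together, which gave 0.482 and 0.405 for this pair. Without HFD 620 and Control 622, the 2 arrays farthest from the median of miR-122, r was 0.237, so the relation rested on those arrays. From the total gene signal, the scanner software's own value per miRNA, r was 0.247, and from the deposited table, over 11 arrays, it was 0.110. With median scaling r was 0.731. Among the 10 arrays outside the 3 of highest miR-122, r was -0.114, given as a description. miR-122 and miR-194 had r = 0.209 and rho = 0.231 (permutation p 0.541 and 0.443, adjusted 0.824 and 0.742), and r turned to -0.174 without the same 2 arrays and to -0.230 without HFD 620 alone.

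miR-192 and miR-194, the pair that shares its clusters, had r = 0.567 (permutation p 0.0410, adjusted 0.509) and rho = 0.574 (permutation p 0.0443, adjusted 0.405). Without HFD 620 and Control 631, the 2 arrays farthest from the median of miR-192, r was 0.294, and without HFD 620 alone 0.323. It was 0.438 with quantile normalization and 0.470 with median scaling. From the deposited table r was 0.514, and from the total gene signal 0.618. Most levels of miR-192 and miR-194 lay at or near the floor. On the scaled intensities without a floor and without a log, the same pair had r = 0.828 (permutation p 0.00045, adjusted 0.0905). miR-192 was then the miRNA most like miR-194 among 175, and miR-194 ranked 4 for miR-192. In the main setting miR-192 ranked 6 for miR-194, and miR-194 ranked 20 for miR-192. With the floor 4 times lower the pair had r = 0.862 (permutation p 0.00011, adjusted 0.0574), and each was the miRNA most like the other among 175. With the normexp background model, which fits background and signal together, r was 0.955 and the adjusted permutation p was 0.000522. In that setting 139 of the 522 pairs (26.6%) were called, against 0 (0%) in the main setting, and the median r of miR-192 with all other miRNAs was 0.56 instead of 0.086. At an unadjusted p under 0.05 the main setting gave 49 pairs (9.39%). Within slide 1, with 8 arrays, r was 0.682 for miR-122 with miR-192, -0.226 for miR-122 with miR-194 and -0.235 for miR-192 with miR-194 (exact permutation p 0.0493, 0.554 and 0.839; adjusted 0.860, 0.936 and 0.993). Slide 2 held 5 arrays, and correlations were computed over at least 6.

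**Figure D5:**
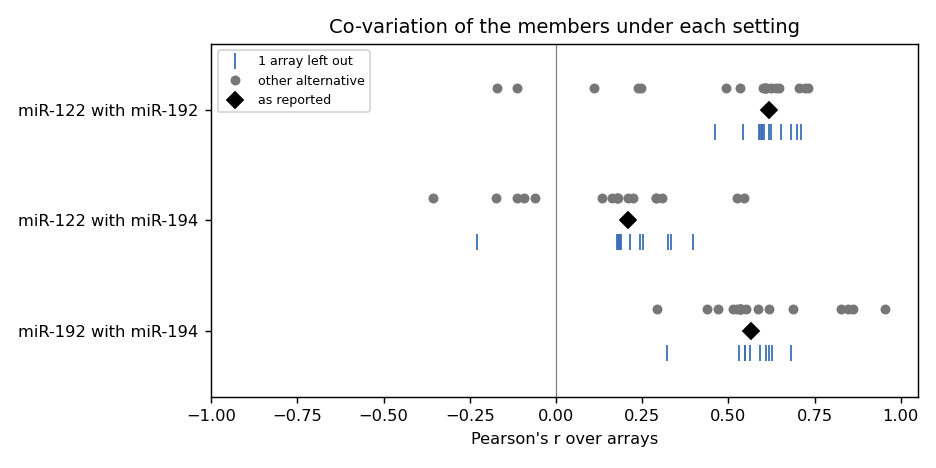
Pearson's r over arrays for the 3 pairs, with a black diamond for the value as reported, blue ticks for values with 1 array left out and grey points for the other processing alternatives. miR-122 with miR-194 crosses 0, from -0.357 to 0.546, and miR-122 with miR-192 crosses it from -0.171 to 0.731; miR-192 with miR-194 lies between 0.294 and 0.955 in the settings plotted, which leave out the values within slide 1.

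In the main setting, the miRNAs whose levels followed each member most closely over the 13 arrays were not the other members. miR-122 was most like miR-551b* (r = 0.717), miR-107 (0.692) and miR-770* (0.674), and least like let-7a-1* (-0.721), and miR-192 came 6 of 175. miR-551b* and miR-770* lay close to the floor, from -5.66 to -5.49 and from -5.66 to -5.36 in log2 level. miR-107, which lies in a gene of coenzyme A synthesis and is well known in fat, was far above it on every array, from -0.66 to -0.10. miR-192 was most like let-7a (0.867), let-7b (0.861) and let-7c (0.854), bright miRNAs of the let-7 family, which restrains growth genes, and least like miR-33 (-0.691). The adjusted permutation p was 0.087 for each let-7 pair by r. By rho let-7b (0.876) and let-7c (0.893) had an adjusted permutation p of 0.0470, the only 2 of 522 pairs under 0.05 by rho. Without HFD 663 all 3 let-7 pairs passed by r, at 0.906, 0.890 and 0.926 (adjusted permutation p 0.0244, 0.0244 and 0.00522). HFD 663 was the only array whose single removal gave a call. The 3 let-7 pairs also passed with levels centred on the diet groups (0.903, 0.870 and 0.910). miR-194 was most like miR-487b (0.753), miR-324-3p (0.748) and miR-322* (0.631), and least like miR-92a (-0.462). Several of these likenesses depended on the processing. let-7a-1* and miR-33 changed sign with the normexp background, to 0.506 with miR-122 and 0.710 with miR-192, and miR-92a came to 0.0036 with miR-194. With the total gene signal miR-551b* had -0.158 and miR-107 had 0.333 with miR-122, while miR-770* kept 0.632. In the same setting miR-324-3p had -0.205 and miR-487b had 0.0973 with miR-194. There let-7a, let-7b and let-7c had 0.6615, 0.6966 and 0.6245 with miR-192, against 0.8466, 0.7956 and 0.8436 with the normexp background.

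The array's 75th percentile, by which each intensity is divided, ran from 1546 to 2540, while the intensity of miR-192 ran only from 30.5 to 50.9. The log2 level of miR-192 had r = -0.799 and rho = -0.842 with that percentile, and miR-122 and miR-194 had r = -0.374 and -0.466. A negative value follows in part from the division itself, so these are given as descriptions with no test. The part of the divisor in the relations of miR-192 with let-7 and with miR-194 was not tested. With the number of miRNAs detected, the level of miR-192 had r = -0.521 and rho = -0.756. miR-122 had r = -0.397 and rho = -0.636, and miR-194 had r = -0.355 and rho = -0.384. Without HFD 663 and HFD 629, r was -0.77 for miR-192, -0.27 for miR-122 and -0.28 for miR-194. The same divided level enters these relations, so they too are given as descriptions with no test.

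Markers of other tissues were read beside the 3 miRNAs. The 3 pancreas markers on the array, miR-375, miR-216a and miR-217, were detected on no array. Of 7 epithelial markers, miR-200c, miR-141 and miR-429 were detected on none, miR-200a on 5 and miR-200b on 4 arrays, and miR-203 and miR-205 on all 13. The summed epithelial signal was 0.310, 0.303 and 0.329 of the 75th percentile on Control 622, HFD 620 and HFD 624, within the range of 0.228 to 0.362 of the other 10 arrays. Muscle markers were low on those 3 arrays, at 0.116, 0.142 and 0.163, and the fat list of 6 miRNAs, which was detected in full on every array, summed to 6.98, 7.09 and 7.44 there. The 3 arrays of highest miR-122 thus stood apart from the others in neither the muscle nor the epithelial sum. The epithelial sum was mostly miR-203, with a median scaled intensity of 0.228. That of miR-205 was 0.0334, of miR-200a 0.0114 and of miR-200b 0.00866, so a change in these would hardly show in the sum. No tested member of any list passed the limma test between the diets, which called 0 of 176 miRNAs (0%). Tested were 0 of the 3 pancreas, 2 of the 7 epithelial, 3 of the 6 muscle and 6 of the 6 fat markers on the array. In bulk fat, more cells of a type and more RNA per cell cannot be told apart. The part of other tissue in the miR-122 signal was not tested.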

How the data were processed

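Fat RNA of 13 rats was measured on 1-colour Agilent rat miRNA arrays. Per the file headers, the authors extracted them with Feature Extraction 10.7.3.1 (grid build rn4), which gave background-subtracted intensity per spot. The deposited value table holds log2 of the total gene signal per miRNA, with 26 of 2569 values off by more than 2e-04 and none of them of the 3 members. It is not normalized between arrays (column medians 6.95 to 7.77), was found so by comparison with the scanner values, and served as an alternative only. RMA and Partek are named in the submitters' processing notes without a role.

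Control spots and outlier-flagged spots were left out of 13540 spots (1644 probes, 677 miRNAs). Unflagged spots were averaged per probe, divided by the array's 75th percentile, floored (median over arrays of percentile 1 of the scaled spots well above background), taken to log2 and averaged over probes. The 176 miRNAs detected on at least 6 of 13 arrays were tested with limma 3.58.1 in R 4.3.3, two-sided with Benjamini-Hochberg adjustment. Pearson and Spearman correlations had 100000 permutations in Python 3.11.15. The limma and correlation steps were tested on simulated levels without a floor, so those tests do not cover levels tied at it. Saturated spots: 0. Because the files hold no mean signal, the normexp alternative used the median signal with an offset of 50.

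Groups came from the titles. The members, marker lists and tests were chosen with earlier results of these data known. Named were the members, their partner miRNAs, and for each member the 3 miRNAs of highest and the 1 of lowest r; miR-133b, miR-1, miR-338 and miR-451 were named after their values were seen.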

Additional observations from a re-analysis of the deposited data

Results flagged for a closer look

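Of 46 groups of values checked, 7 held an animal whose gap to the nearest other was large for the range of its group. Among normally distributed values without ties, chance does this in about 1 in 20 groups. The summed intensities are on a linear scale, and the rate for such sums was not tested. In the Control group, animal 622 had a summed scaled intensity of miR-122, miR-192 and miR-194 of 0.2198, against 0.0329 to 0.0932 in the other 6. Most of it was miR-122, at 0.1778, beside 0.0274 for miR-192 and 0.0146 for miR-194. The HFD group did not stand out in this sum because 2 of its 6 animals were high. Among the miRNAs named for their likeness to miR-122, each of 2 had a single Control animal above the floor, where the other 6 lay. miR-551b* had a log2 level of -5.638 in animal 664, and miR-770* had -5.589 in animal 627. Any value above a tied floor spans the whole range, so the rate of 1 in 20 does not apply to these 2.

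The other values concern marker lists. The summed scaled intensity of muscle miRNAs was 14.07 in HFD 629, against at most 0.877 in the other HFD animals, and miR-122 was 56.5 in intensity there. The white blood cell sum was 3.375 in Control 664, the brain sum 1.186 in Control 656 and the fat sum 18.88 in Control 658. miR-122 was undetected in Control 656 and had an intensity of 39.8 in Control 658, and none of these 4 animals was among the 3 of highest miR-122.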

How the results depend on the processing

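No paired analysis was possible because each title carries its own animal number and no number is shared between the groups. The diet test called 0 miRNAs under all 30 alternatives. The difference of miR-122 ran from -0.29 to 1.02 and was below 0 without the 3 arrays of highest miR-122 (-0.29), and it ran from -0.084 to 0.73 with 1 array left out (-0.035 without HFD 624). That of miR-192 ran from 0.026 to 0.28 and kept its sign under all 29 alternatives that gave a value, with 0.031 to 0.15 with 1 array left out. That of miR-194 ran to 0.38, from 0.015 to 0.050 with 1 array left out, and was -0.0043 with the normexp background. The lowest adjusted p by limma among these alternatives was 0.733 for miR-122 and 0.678 for miR-192 and miR-194. The alternatives leave out the fits within a slide or number range. Within slide 1 the difference of miR-192 was -0.075 and that of miR-194 -0.016, and within the upper numbers that of miR-122 was -0.48. Within slide 2 the adjusted p by limma was 0.362 for miR-192 and 0.484 for miR-194. With the floor 4 times higher, miR-192 and miR-194 lay at it everywhere and gave no value, and none of the 3 passed a filter on detection on all 13 arrays.

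Of the 522 pairs, 139 were called with the normexp background and 3 after centring on diet group, and from 0 to 3 with 1 array left out (3 without HFD 663). In the latter 2 settings these were miR-192 with let-7a, let-7b and let-7c. miR-192 with miR-194 was then called with normexp only (r = 0.955); for it and for the counts the cause was not tested. r of miR-122 with miR-192 was 0.731 with median scaling, 0.247 with total gene signal and 0.110 with the deposited table. It was -0.114 without the 3 arrays of highest miR-122 and -0.171 on the linear scale without them. r of miR-122 with miR-194 was -0.0923 and -0.357 in the same 2 settings, -0.0621 with total gene signal, -0.113 with the deposited table, -0.174 without the 2 farthest arrays and from -0.230 to 0.399 with 1 array left out. The single slide-by-diet call was lost with quantile normalization (0 called). Leaving out the 3 arrays of highest miR-122 and keeping flagged spots were chosen after seeing the data. Dim signal limits miR-192 and miR-194: both lie near the floor, and 1 probe of miR-194 was detected on no array.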
